A study of Rattus norvegicus with 36 samples.

Results

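Rats that were given cocaine without going on to express a preference for its compartment, called nCPPE, were compared with Saline rats. The members were taken by the phenotype in the labels, non-dependent (non CPP-E) or Saline, with 3 rats in each group. These 6 rats, with 24 libraries, are part of a series of 9 rats and 36 libraries. The measurement was messenger RNA of the nucleus accumbens, sequenced in 4 technical replicates of each rat that were summed before any comparison. All were Sprague-Dawley rats, an outbred stock, aged 8 weeks.

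Place conditioning pairs a drug with one compartment of a box, and time spent there on a later drug-free or drug-primed test is read as preference. The nCPPE rats had 4 injections of cocaine, 1 per day, 15 days of withdrawal and 1 last injection of cocaine at 5 mg/kg, and the Saline rats had physiological serum on the same schedule. Their preference was measured for 18 min directly after that last injection. The series text gives 12 days of extinction before it. The other cocaine rats, called CPPE (dependent, CPP-E), had the same drug schedule and expressed the preference, and 3 of them enter here for the shared estimate of the spread and for the test of difference between the cocaine groups. The sources used here do not give the conditioning dose, the behavioural criterion or the sex of the rats. Because the nCPPE rats were set apart by their behaviour as well as treated with cocaine, the drug and the behavioural class cannot be told apart in this comparison.

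The nucleus accumbens is the ventral part of the striatum. Most of its neurons are GABAergic spiny projection neurons, which receive dopamine from the midbrain and glutamate from cortex, hippocampus, amygdala and thalamus. Cocaine blocks the dopamine transporter, so that dopamine stays longer outside the terminal, and both acute and repeated exposure are known to change transcription in spiny neurons. In a tissue sample, fewer cells of a type and less RNA per cell cannot be told apart.

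The 6 rats had 27724289 to 33715494 counts each. Of the 32402 Ensembl identifiers listed, 0 could be paired with a symbol in the reference used here, so genes are given by identifier, the labelled tissue was not checked against its marker genes, and no promoter or protein sequence is printed. CPM below stands for counts scaled to a common library total. Distances between rats were taken over the 13767 genes averaging 1 CPM or more, and they did not part the nCPPE rats from Saline 1 and Saline 3. Between 146 and 412 of these genes were over 2-fold apart in a pair of nCPPE rats, and 91 to 282 in a pair of an nCPPE rat with Saline 1 or Saline 3. The lowest number in the 9 rats, 91, was between nCPPE 1 and Saline 3. Saline 2 stood apart from all of them, with 3336 to 3772 genes over 2-fold from an nCPPE rat and 4058 and 4318 from Saline 1 and Saline 3. The counts of genes and the tests of nCPPE against Saline are therefore given with all 3 Saline rats and again without Saline 2.

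**Figure D1:**
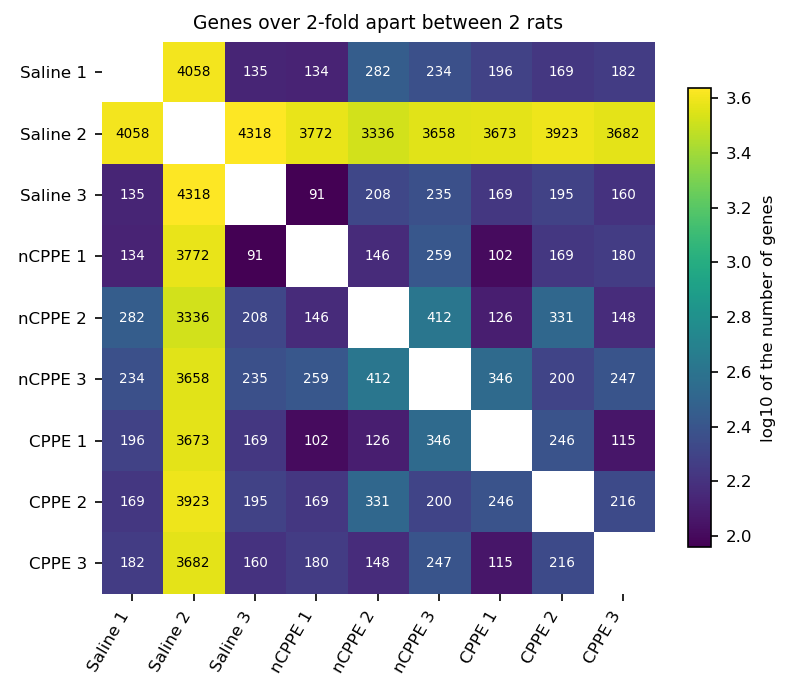
Number of genes, of 13767 averaging 1 CPM or more, that lay over 2-fold apart between each pair of the 9 rats (rows and columns are rats, colour is the log10 of the number printed in the cell). The row of Saline 2 holds 3336 to 4318 genes, while no pair without it exceeds 412.

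The separation of the whole transcriptome by group was measured over the 6 rats. With all of them, group membership took up 13.8% of the squared distances of log2 CPM over the tested genes (pseudo-F 0.640, exact permutation p = 1.0, one-sided over 20 splits). Without Saline 2 it took up 24.6% (pseudo-F 0.979, exact permutation p = 0.6, one-sided over 10 splits). The smallest p that either design allows is 0.1, so neither could have passed a threshold of 0.05.

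No gene passed edgeR's quasi-likelihood test at an adjusted p below 0.05, with all rats (0 of 15555, 0.0%) or without Saline 2 (0 of 15750, 0.0%). The smallest adjusted p was 0.937 in the first fit and 0.787 in the second. The number of genes at an unadjusted p below 0.05 was 179 (1.15%) with all rats, 71 higher and 108 lower in nCPPE. Without Saline 2 it was 964 (6.12%), 396 higher and 568 lower. The other tools gave more or fewer genes at that level, DESeq2 207 and 903 and limma-voom 1221 and 1447, with all rats and without Saline 2 in turn. In the genes of both fits, 71 were below that level in each. Of the 953 below it without Saline 2, 608 had an unadjusted p above 0.5 once Saline 2 was included. Such p-values were common over all 15555 genes in that fit. From 0.5 upward, each bin of 0.05 held 624 to 925 genes. The standard error of a gene's log2 difference was 1.56 times as large with Saline 2 as without it (median over 15555 genes), and the biological coefficient of variation was 26.2% with it and 11.8% without it.

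**Figure D2:**
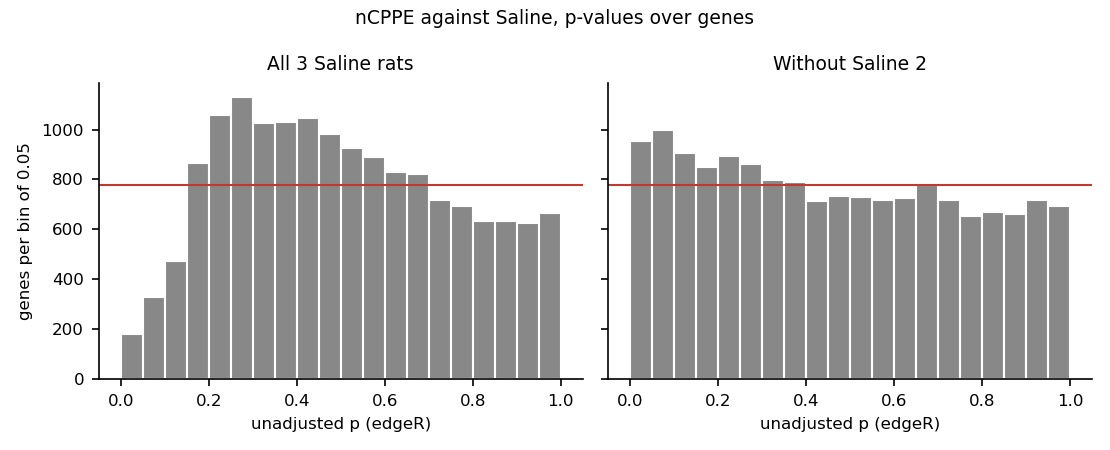
Histogram of unadjusted edgeR p-values over 15555 genes in bins of 0.05, with all 3 Saline rats (left) and without Saline 2 (right). The red line is the height of an even spread, 777.8 genes per bin, and the first bin holds 179 genes on the left and 953 on the right.

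The groups did not overlap, meaning that each nCPPE rat was higher, or each was lower, than every Saline rat, in 626 genes with all rats (4.02%), 329 of them higher and 297 lower in nCPPE. Without Saline 2 that number was 3897 (24.7%), 1966 higher and 1931 lower, with 3 rats set against 2. Where groups do not differ, 3 rats lie clear of 2 more often than of 3, so the 2 shares are not comparable. Neither was set against the share that would arise without a difference. Large differences were few. Among genes averaging 1 CPM or more, 16 were fitted over 2-fold higher and 46 over 2-fold lower in nCPPE with all rats, and 4 and 6 of these had groups that did not overlap. Without Saline 2 the fitted numbers were 48 and 25, and 20 and 9 did not overlap. Presence in a single group was not seen. In 0 genes did every rat of one group have at least 10 counts while every rat of the other had none, whichever group was taken and with or without Saline 2.

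**Figure D3:**
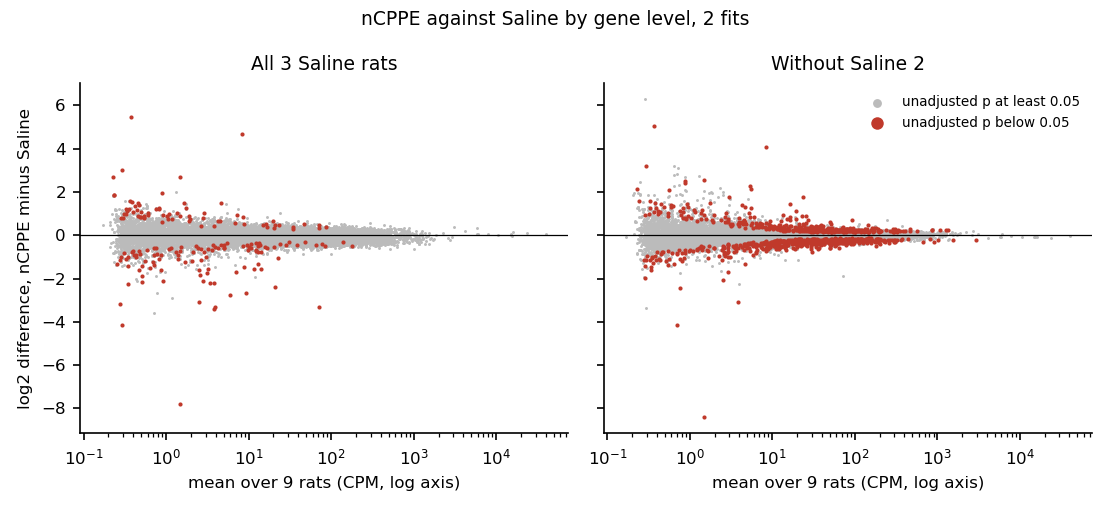
Log2 difference of nCPPE minus Saline against the mean over 9 rats (CPM, log axis), 1 point per gene for 15555 genes, with all 3 Saline rats (left) and without Saline 2 (right). Red points are genes at an unadjusted p below 0.05, which number 179 on the left and 953 on the right. On the right they reach down to smaller differences among well counted genes.

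The genes ranked first by their larger p over both fits are given singly. They did not pass the adjusted edgeR test. They were chosen for small p-values in these same nCPPE rats, which by itself favours CPPE levels on the Saline side of the nCPPE rats. The intervals given below for CPPE minus nCPPE do not allow for that choice. Of genes higher in nCPPE, ENSRNOG00000008118 had 4.26, 5.15 and 8.90 CPM in nCPPE 1, 2 and 3 and 2.87, 1.61 and 2.12 CPM in Saline 1, 2 and 3. Every nCPPE rat was above every Saline rat, and nCPPE 3 was the highest of the 9 rats. The log2 difference was 1.47 ± 0.32 (SE) with all rats (edgeR adjusted p = 0.937) and 1.28 ± 0.32 without Saline 2 (edgeR adjusted p = 0.787). The CPPE rats had 6.09, 4.92 and 6.22 CPM, inside the range of the nCPPE rats. The log2 difference of CPPE minus nCPPE was -0.09 in both fits, with a 95% interval of -0.79 to 0.62 with all rats and of -0.67 to 0.50 without Saline 2.

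ENSRNOG00000016275 had 27.8, 21.4 and 15.3 CPM in nCPPE 1, 2 and 3, from 933, 668 and 480 counts. Saline 1 had 2.53 CPM (73 counts), and Saline 2 and Saline 3 had no count. The lowest nCPPE rat was thus several times above the one Saline rat in which the gene was counted. With 3 counts taken as the limit of a count of 0, the nCPPE mean of 21.5 CPM was at least 199-fold higher than Saline 3 alone. The limit covers counting error only. The fitted log2 difference, which rests on Saline 1, was 4.65 ± 1.34 (SE) with all rats (edgeR adjusted p = 0.937) and 4.07 ± 0.99 without Saline 2 (edgeR adjusted p = 0.787). The CPPE rats, at 4.61, 0.431 and 2.70 CPM, lay below all nCPPE rats. The log2 difference of CPPE minus nCPPE was -3.07 with all rats (95% interval -5.82 to -0.32, edgeR adjusted p = 1.0) and -3.09 without Saline 2 (95% interval -4.82 to -1.37, edgeR adjusted p = 0.971).

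Of genes lower in nCPPE, ENSRNOG00000016164 had 0.745, 0.384 and 0.223 CPM in nCPPE 1, 2 and 3 (25, 12 and 7 counts) and 0.831, 6.63 and 7.02 CPM in Saline 1, 2 and 3 (24, 185 and 195 counts). Saline 1 was at the level of the nCPPE rats, so the groups were kept from overlapping by the small gap between 0.745 and 0.831 CPM. Here Saline 2 was on the side of Saline 3. The log2 difference was -3.40 ± 0.76 (SE) with all rats (edgeR adjusted p = 0.937) and -3.09 ± 0.76 without Saline 2 (edgeR adjusted p = 0.787). With Saline 1 as the sole control it was -0.86. This was the single gene that DESeq2 called with all rats (1 of 15553 genes given an adjusted p, 0.00643%, adjusted p = 0.0159, range over the 16 alternatives 0.0159 to 0.998). All CPPE rats were high, at 7.54, 5.69 and 5.21 CPM. CPPE minus nCPPE was 3.75 on the log2 scale with all rats (95% interval 2.02 to 5.48, edgeR adjusted p = 1.0) and 3.74 without Saline 2 (95% interval 2.15 to 5.33, edgeR adjusted p = 0.971). DESeq2 called this difference with all rats (1 of 15553 genes, 0.00643%, adjusted p = 0.00108) and not without Saline 2 (adjusted p = 0.0562), where its single call was another gene (1 of 15749 genes, 0.00635%, adjusted p = 0.0285).

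ENSRNOG00000046663 had 1.58, 1.25 and 2.14 CPM in nCPPE 1, 2 and 3 and 3.46, 4.62 and 2.88 CPM in Saline 1, 2 and 3. All nCPPE rats were below all Saline rats, by a gap smaller than the range within the Saline group. The log2 difference was -1.14 ± 0.28 (SE) with all rats (edgeR adjusted p = 0.937) and -0.94 ± 0.26 without Saline 2 (edgeR adjusted p = 0.787). The CPPE rats, at 3.06, 2.79 and 2.18 CPM, lay above every nCPPE rat, with CPPE 1 inside the Saline range and the others below it. CPPE minus nCPPE was 0.69 on the log2 scale with all rats (95% interval 0.06 to 1.33, edgeR adjusted p = 1.0) and 0.70 without Saline 2 (95% interval 0.16 to 1.23, edgeR adjusted p = 0.971).

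**Figure D4:**
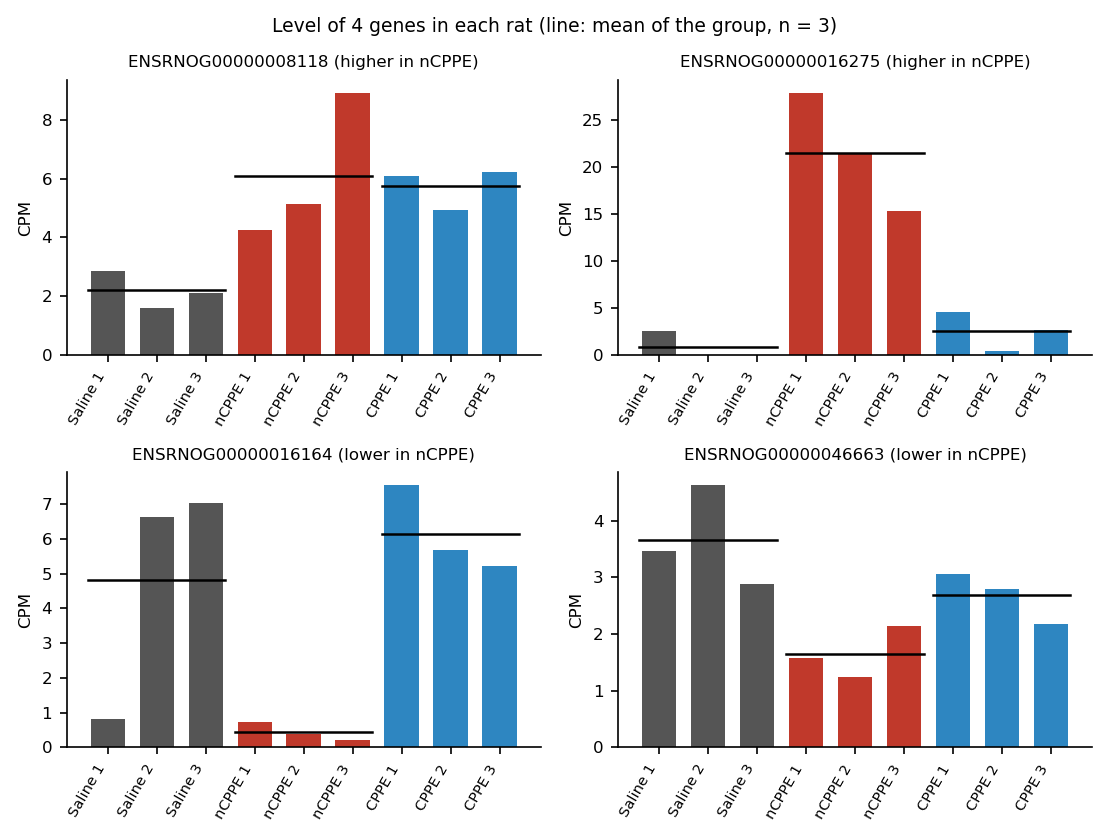
Level in CPM of 4 genes in each of 9 rats (1 bar per rat, grey Saline, red nCPPE, blue CPPE), with the mean of each group of 3 as a black line. The red bars of ENSRNOG00000016275 stand at 15.3 to 27.8 CPM beside at most 4.61 CPM elsewhere, and Saline 1 has the low level of ENSRNOG00000016164 that the nCPPE rats have.

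Over the 10 genes ranked first in each direction, those higher in nCPPE had log2 differences of 0.29 to 4.65 with all rats, 2 of them over 2-fold, and 9 of the 10 had groups that did not overlap. Those lower in nCPPE had log2 differences of -3.40 to -0.43, 3 of them over 2-fold, and in 10 of 10 the groups did not overlap. Without Saline 2 the ranges were 0.28 to 4.07 and -3.09 to -0.30. They were chosen for small p-values, so these counts describe the choice.

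Without Saline 2, DESeq2 called 15 of the 7811 genes to which it gave an adjusted p (0.192%), 4 higher and 11 lower in nCPPE, at adjusted p-values of 0.0276 to 0.0494. By edgeR's fit the log2 differences of the higher genes were 0.26 to 0.70 and those of the lower genes -0.63 to -0.28. In all 15 the 3 nCPPE rats lay on one side of Saline 1 and Saline 3, as they did in 3897 of all 15750 genes (24.7%). The 15 were chosen for small p-values in this same comparison, so that count describes the choice. The edgeR adjusted p of each was 0.787. DESeq2's independent filtering left the genes outside these 7811, including the 4 given singly above, without an adjusted p. Without that filter, a setting added after the data were seen, DESeq2 called 6 genes, 3 in each direction, and 4 of them were among the 15. Of the other 2, ENSRNOG00000037673, chosen after its values were seen, had 6.35, 6.72 and 4.53 CPM in nCPPE 1, 2 and 3 and 0.588 and 2.12 CPM in Saline 1 and Saline 3, a log2 difference of 2.12 (DESeq2 adjusted p = 0.00159 in that setting). Saline 2, at 6.06 CPM, was inside the range of the nCPPE rats. The CPPE rats had 8.79, 8.25 and 6.06 CPM, so Saline 1 and Saline 3 were the lowest of the 9 rats. The remaining gene was higher in nCPPE by 0.76 on the log2 scale (DESeq2 adjusted p = 0.0427), and Saline 2 was above every nCPPE rat, at 22.5 CPM beside 18.2, 17.5 and 14.6 CPM.

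The share of all genes with Saline 2 beyond the nCPPE rats was not counted. In each of these 15 genes Saline 2 lay on the far side of the nCPPE rats. It was above every nCPPE rat in all 4 higher genes and below every nCPPE rat in all 11 lower genes, 0.84 to 1.44 above and 0.81 to 3.78 below Saline 1 and Saline 3 on the log2 scale. One of the higher genes had 1050 and 1030 CPM in Saline 1 and Saline 3, 1180, 1260 and 1290 CPM in nCPPE 1, 2 and 3, and 2830 CPM in Saline 2. One of the lower genes had 102 and 92.0 CPM in Saline 1 and Saline 3, 69.5, 57.5 and 65.0 CPM in nCPPE 1, 2 and 3, and 7.06 CPM in Saline 2. In both the nCPPE rats stood between the 2 close Saline rats and the third. With Saline 2 included, the edgeR log2 differences of the 15 genes were -0.40 to 0.27. Their sign stayed the same in 5 genes and turned in the other 10. The share of all genes in which the sign turned was not counted. The deviation of Saline 2 and the difference of the nCPPE rats are both measured from Saline 1 and Saline 3, so they are not independent, and the part of Saline 2's deviation in the result was not tested.

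The levels of CPPE and nCPPE rats overlapped in 9 of these 15 genes. How often they overlap over all genes was not counted, so the 9 are not to be read as likeness of the groups. Without Saline 2, CPPE minus nCPPE was -0.25 to 0.34 on the log2 scale. The 95% interval excluded a 2-fold difference in 15 of 15, as in 13215 of all 13769 genes averaging 1 CPM or more in this fit. A 2-fold difference is larger than these genes' log2 differences from Saline, 0.26 to 0.70 and -0.63 to -0.28. The bound therefore does not tell whether CPPE rats shared them. CPPE rats too lay on one side of Saline 1 and Saline 3 in 15 of 15. The genes were chosen against those same 2 rats, and the share over all genes was not counted. In 6 of the 11 lower genes CPPE was nearer to Saline at an unadjusted p below 0.05, where 556 of all 15750 genes (3.53%) were at that level in either direction. The 11 were chosen for low levels in these same nCPPE rats, which by itself favours a higher CPPE level. The 6 are therefore not to be read as an excess over that share. None of the 15 passed after adjustment (smallest edgeR adjusted p = 0.971).

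**Figure D5:**
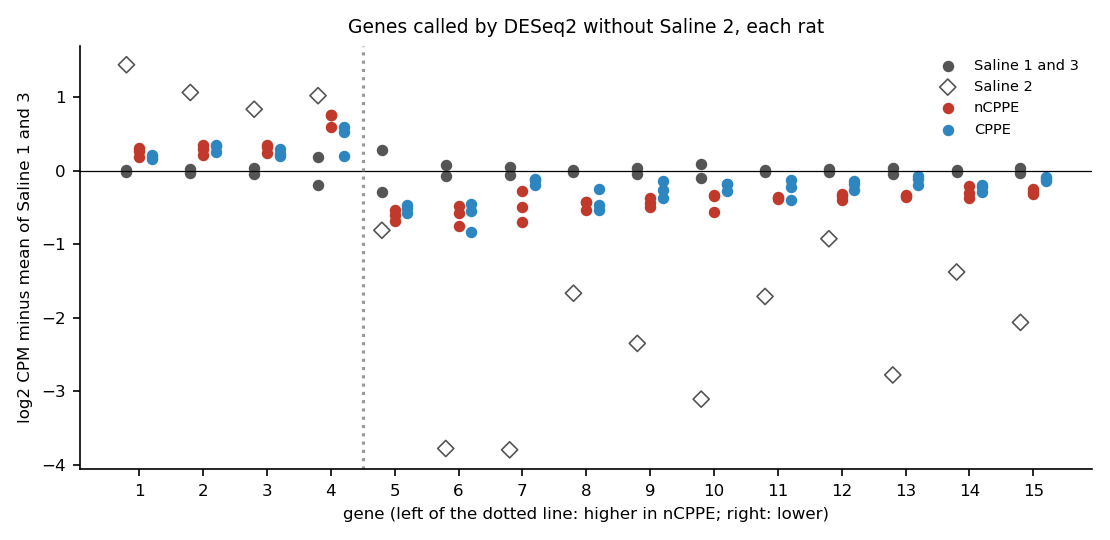
The 15 genes called by DESeq2 without Saline 2, each as a column of 9 points, plotted as log2 CPM minus the mean of Saline 1 and Saline 3 (filled grey Saline 1 and 3, open diamond Saline 2, red nCPPE, blue CPPE). Genes left of the dotted line are the 4 higher in nCPPE and those to the right the 11 lower. In each column the open diamond lies beyond the red points.

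For most genes the data bounded how far nCPPE and Saline rats could differ. For the 13767 genes averaging 1 CPM or more, the 95% interval of the edgeR log2 difference excluded a 2-fold difference in 75.2% with all rats and in 93.5% without Saline 2. A 1.5-fold difference was excluded in 37.2% and 76.7%, and a 4-fold difference in 98.7% and 99.1%. The bound depended on the level of the gene. Without Saline 2, a 1.5-fold difference was excluded in 36.6% of 3931 genes at 1 to 10 CPM, in 91.5% of 7732 genes at 10 to 100 CPM and in 97.4% of 2104 genes at 100 CPM and over. With all rats the shares were 15.9%, 45.2% and 47.6%. The median size of the log2 difference in these classes was 0.162, 0.0813 and 0.0747 without Saline 2 and 0.201, 0.160 and 0.166 with all rats. The intervals use a spread shared by all groups. Where Saline 2 is included, the Saline rats spread more than the other groups, so the intervals may be too narrow for the Saline group, which was not tested. Without Saline 2 the Saline spread is that of 2 rats.

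The nCPPE rats were not alike in how much of the transcriptome they set apart. Of the 13767 genes, 288 in nCPPE 3 were over 2-fold from the average of both other nCPPE rats, 207 higher and 81 lower. In nCPPE 2 the numbers were 85 higher and 107 lower, and in nCPPE 1 they were 28 and 50. Genes over 2-fold above each of the other nCPPE rats and Saline 1 and Saline 3 numbered 58 in nCPPE 3, 50 in nCPPE 2 and 3 in nCPPE 1. Without Saline 2, the 964 genes at an unadjusted p below 0.05 became 1121, 897 and 1140 when nCPPE 1, nCPPE 2 or nCPPE 3 was left out as well, and edgeR called 0 genes in each of these fits.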

How the data were processed

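The authors deposited raw read counts per Ensembl gene, with no normalization, in 1 file per technical replicate. Per the labels' protocols, libraries were made from 300 ng of total RNA with polyA selection and a strand-specific kit. The labels name the nucleus accumbens as tissue, while the extraction protocol also speaks of the caudate putamen. HTSeq 0.5.3, STAR and bcl2fastq 2.18.0.12 are the tools named, per the submitters' processing notes. The sources used here do not give build, annotation release or strand setting, so counts of overlapping or near-identical genes are uncertain.

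The 4 technical replicates of a rat differed by no more than sampling noise (chi-square per degree of freedom 1.00 to 1.02) and were summed. edgeR 4.0.16 in R 4.3.3 (filterByExpr, TMM scaling, glmQLFit and glmQLFTest, two-sided, Benjamini-Hochberg adjustment over all genes tested, threshold 0.05) was fitted with group as the factor over all 9 rats and over the 8 rats other than Saline 2. DESeq2 1.42.0 and limma 3.58.1 (voom with quality weights), other scalings and filters, only the nCPPE and Saline rats, a replicate block and leaving out each rat were alternatives. CPM used TMM-scaled library sizes, and log2 CPM a prior count of 2. Standard errors were worked out from the edgeR fits, as the size of the log2 difference divided by the square root of its F statistic. The 95% intervals were built from them with the t distribution. They are symmetric about the difference, which is an approximation.

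Genes named singly averaged 1 CPM or more, had the same direction in both fits and were ranked by the larger of their 2 unadjusted p-values. As identifiers could not be paired with names, only 2 per direction are given by this rule, and 33 gene lists drawn up for this comparison were not used. The comparison, the leaving out of Saline 2 and the lists were chosen with earlier results of these data known.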

Additional observations from a re-analysis of the deposited data

Results flagged for a closer look

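ENSRNOG00000016164 had all nCPPE rats below the Saline mean of 4.83 CPM and all CPPE rats above it, and was therefore marked as a gene in which the cocaine groups moved apart. The log2 difference of CPPE minus nCPPE was 3.74 without Saline 2 (edgeR adjusted p = 0.971), so the difference did not pass the edgeR test over all genes. By DESeq2 it had an adjusted p of 0.00108 with all rats and of 0.0562 without Saline 2. The Saline rats themselves were at both levels, with Saline 1 among the low rats. The gene was chosen for its low level in these same nCPPE rats, which by itself favours a higher CPPE level.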

How the results depend on the processing

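edgeR called 0 genes for nCPPE against Saline in every alternative run with it, with all rats or without Saline 2, and limma-voom called 0 in both. These cover other scalings, other filters on low counts, only the nCPPE and Saline rats, the replicate block and each rat left out in turn. DESeq2 called 1 gene with all rats and 15 without Saline 2. Without Cook's cutoff, its guard against outlying counts, it called 1 and 15, and without independent filtering 1 and 6. These last settings were chosen after seeing the data. For CPPE against nCPPE without Saline 2, edgeR called 0 and DESeq2 called 1 under each of its settings run.

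With the replicate block edgeR called 0 genes, and the number at an unadjusted p below 0.05 went from 179 to 130 with all rats and from 964 to 614 without Saline 2. Rat numbers share no stated origin and were therefore not taken as pairs. The correlation of deviations of same-numbered nCPPE and Saline rats was 0.192, 0.257 and 0.067, and that of differently numbered rats was -0.233 to 0.214. These values were not tested and do not settle whether the numbers pair the rats. With all rats, leaving out Saline 1, Saline 2 or Saline 3 brought 377, 964 or 552 genes to an unadjusted p below 0.05 by edgeR, and leaving out nCPPE 1 brought 109. Without Saline 2, leaving out Saline 1 or Saline 3 as well brought 564 or 607, with the lone Saline rat assumed to vary like the other groups. The direction of each of the 4 single genes was the same in all alternatives. The genes were chosen for the same direction in both fits and for small p-values, so this describes the choice. Their log2 difference without Saline 2 ranged from 0.91 to 1.52 for ENSRNOG00000008118, from -3.93 to -0.86 for ENSRNOG00000016164 and from -1.16 to -0.77 for ENSRNOG00000046663. For ENSRNOG00000016275, fits without Saline 1 have no count in the controls and give no usable size, and over the other alternatives the range was 3.09 to 6.74.

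With 3 rats a group, and 2 where Saline 2 is left out, small changes in genes of low counts cannot be resolved, as the intervals by level show.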
